A study of Homo sapiens with 30 samples.

Results

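The 42 autophagy and lysosome genes described here were chosen by name, with earlier results of these data known. They are cargo receptors, autophagosome machinery, the TFEB family of transcription factors, lysosomal membrane proteins, lysosomal hydrolases and subunits of the lysosomal proton pump. All 42 symbols were found once each among the 60675 genes of the deposited expected-count table, and all 42 passed the filter on low counts that left 19632 genes for testing. RNA sequencing was done on SW1783, an established human astrocytoma cell line, 24 h after treatment. Cells received an ethanol extract of 1 of 4 multi-herb formulas at 20, 100 or 500 µg/mL, or vehicle. Each dose was covered by 3 libraries for Bojungikgi-tang, 3 for Sayeok-tang, 2 for Banhasasim-tang and 1 for Yijung-tang, beside 3 vehicle libraries. The sample labels give the vehicle as 0.1% DMSO and the design text of the series gives 2%. Doses are given as the labels state them. By the design text, the highest dose may be an IC20, a dose set by 20% inhibition, for some extracts. A single cell line was used, so nothing here separates a response of astrocytoma cells in general from one of this line.

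Autophagy encloses cell material in a double membrane, the autophagosome, which then fuses with the lysosome. Cargo receptors tie ubiquitin-marked material to small proteins of the ATG8 family, which a conjugation system attaches to the growing membrane. Lysosomes break the contents down with acid hydrolases, at a pH held low by a proton pump, and transcription factors of the TFEB family bind a short motif near the start of many of these genes.

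Libraries held 28.01 to 59.9 M counts, with vehicle at 28.01 to 37.41 M, and the 42 genes together took 0.584 to 0.755% of the counts of a library. Levels below are CPM, counts scaled by TMM to a common library size, for single libraries or as mean ± SD over libraries. A gene is said to have risen or fallen where edgeR's quasi-likelihood test, adjusted over the 19632 genes by Benjamini-Hochberg, gave an adjusted p under 0.05, and log2 fold changes are given with their standard error (SE). Separate cultures are not named in the labels, and p-values therefore reflect the spread among these libraries alone, which may be technical. Bojungikgi-tang and Sayeok-tang libraries carry sample numbers of one label set, Banhasasim-tang and Yijung-tang libraries those of another and vehicle those of one more. A difference from vehicle and a difference between label sets therefore cannot be told apart, and 500 against 20 µg/mL within a formula is the main comparison. Replicate 2 of Bojungikgi-tang at 20 µg/mL stood farthest from its group, with a mean chi-square per gene of up to 36.4 against another library of that group, where the 24 replicate pairs started at 2.53. Among 8 astrocyte markers, vehicle cells had GJA1 at 243 CPM, SOX9 at 73.9 CPM and SLC1A3 at 34.6 CPM. The others were near 0: GFAP at 0.0816, S100B at 0.211, SLC1A2 at 0.339, ALDH1L1 at 0.0234 and AQP4 at 0 CPM. The summed level of 7 myeloid markers, led by PTPRC with AIF1 and TYROBP at or near 0, went from 17.5 to 18.0 CPM in vehicle to 11.3 to 12.4 CPM with Bojungikgi-tang, 8.26 to 9.55 CPM with Sayeok-tang and 4.78 to 5.23 CPM with Banhasasim-tang at 500 µg/mL. That of the 8 astrocyte markers went from 348 to 358 CPM to 313 to 315, 292 to 301 and 211 to 212 CPM in the same order. That of 5 neuronal markers went from 177 to 183 CPM to 153 to 159, 109.7 to 113 and 97.1 to 102 CPM, that of 4 oligodendrocyte markers from 155 to 164 CPM to 145 to 151, 140.1 to 145 and 125 to 129 CPM, and that of 4 mesenchymal markers from 14899.9 to 15204 CPM to 12423 to 12737, 11432 to 11779.7 and 11682 to 12174 CPM. The 5 epithelial markers summed to 853 to 878 CPM in vehicle and 579 to 653, 787 to 833 and 820.3 to 889 CPM at 500 µg/mL. The sums at 20 µg/mL follow, with formulas in the same order. Astrocyte markers summed to 307 to 317, 306 to 309.9 and 309.8 to 316 CPM. Myeloid sums were 16.0 to 17.8, 14.2 to 18.4 and 16.0 to 16.6 CPM. Neuronal sums were 168 to 185, 163 to 170.2 and 159 to 166 CPM. Oligodendrocyte sums were 147 to 162, 152 to 156 and 147 to 152 CPM. Mesenchymal sums were 14065 to 15364, 13697 to 14636 and 14824 to 15131 CPM. Epithelial sums were 892 to 1008, 953 to 998 and 937 to 951 CPM. The part of these markers in the results below was not tested. In bulk RNA, fewer cells of a kind and less RNA per cell cannot be told apart.

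Most members that moved between 20 and 500 µg/mL went up. With Bojungikgi-tang 10 of the 42 rose (23.8%) and 5 fell (11.9%), where 6.64% of all genes tested rose and 8.9% fell. With Sayeok-tang 16 rose (38.1%) and 3 fell (7.14%), against 9.89% and 10.6% of all genes. With Banhasasim-tang 22 rose (52.4%) and 6 fell (14.3%), against 22.3% and 21.3% of all genes. The shares of all genes, here and below, were not matched to the members by expression level. The median log2 change of the 42 was 0.04, 0.07 and 0.14 in the same order, while that of all genes lay within 0.01 of 0. The list was chosen with earlier results of these data known, so its distance from all genes is not independent of them. SQSTM1, ULK1, WIPI1, NPC1, CTSD and CTSL rose with all 3 formulas, and MITF fell with all 3. 9 members passed in none of the 3: GABARAP, GABARAPL2, BECN1, ATG9A, ATG16L1, TFE3, CD63, CTSA and CTSZ.

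How libraries were scaled and which libraries were used moved these counts. With scaling by library size alone, 16 members rose and 2 fell with Bojungikgi-tang, and the share of higher genes among all calls went from 42.7 to 69.5%. The same scaling gave 20 higher and 1 lower with Sayeok-tang (48.2 to 62.8% of calls higher) and 19 higher and 9 lower with Banhasasim-tang (51.2 to 39.3%). In a fit of the compared groups alone, 6 members rose and 1 fell with Bojungikgi-tang: the calls of NBR1, ULK1, ATG14, CTSD, ATG3, ATG5, ATG7 and ATP6V1D ended. With Sayeok-tang that fit ended the calls of OPTN and ATG3, and with Banhasasim-tang those of ATG12 and LAMP2. Without replicate 2 of Bojungikgi-tang at 20 µg/mL, 1 member fell, which was MITF.

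**Figure D1:**
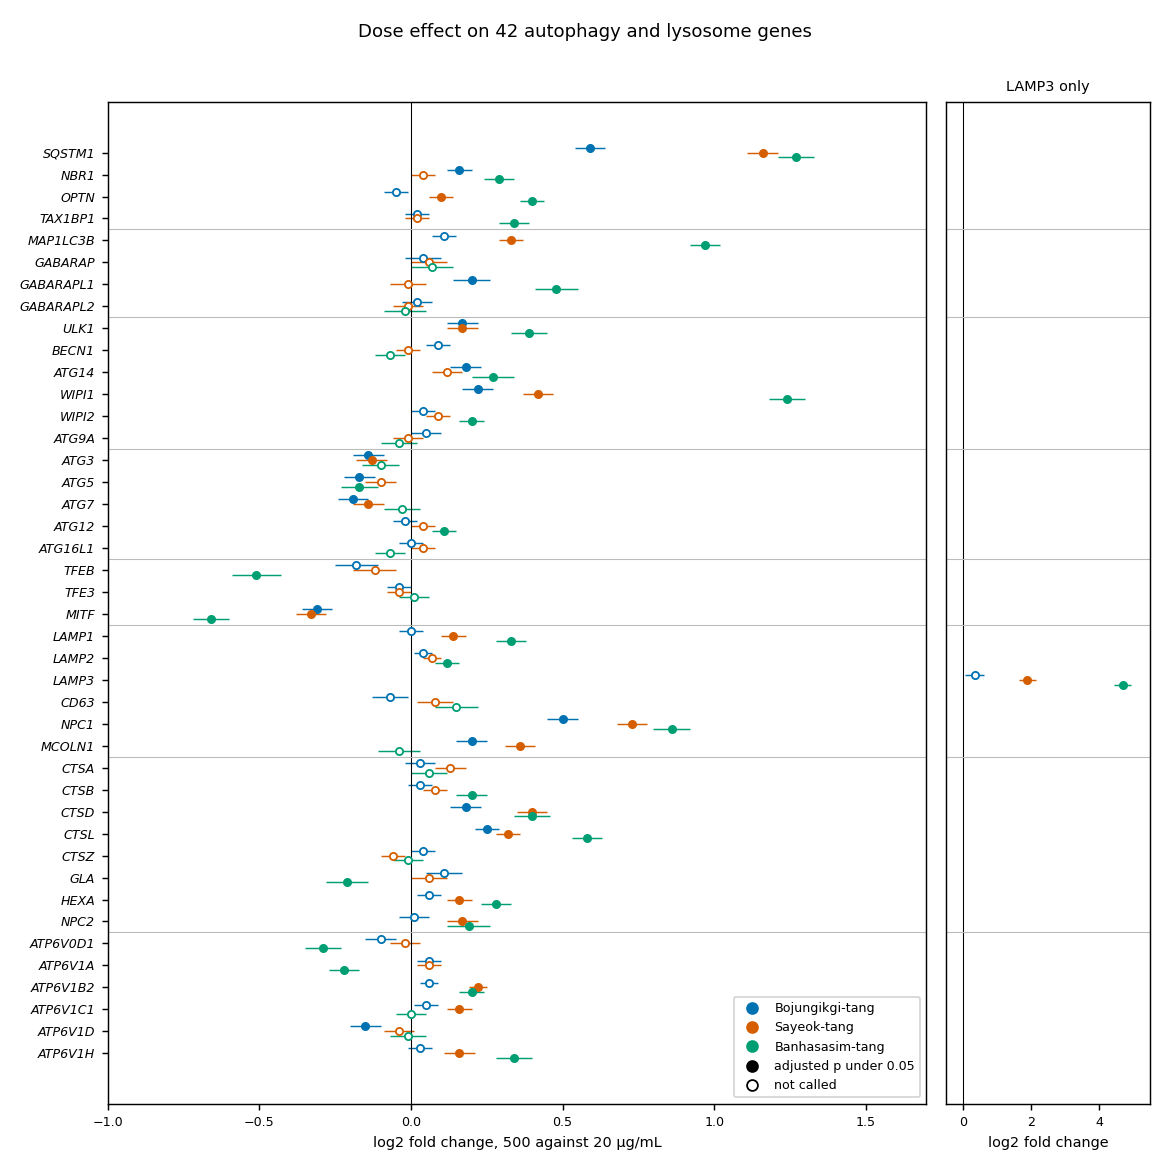
Each point is the log2 fold change of 500 against 20 µg/mL for a member, the bars are standard errors from the edgeR fit, filled points passed at an adjusted p of 0.05, and LAMP3 has its own axis at the right. Grey lines separate the groups by role, from cargo receptors at the top to proton pump subunits at the bottom. SQSTM1 and WIPI1 lie farthest to the right and MITF farthest to the left among the genes of the wide panel.

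SQSTM1 (ENSG00000161011, chr5:179806398-179838078, plus strand, GRCh38 with GENCODE v29, as for all gene positions below) encodes p62, the receptor that carries ubiquitin-marked cargo to autophagosomes. Its 3 vehicle libraries were at 459, 503 and 515 CPM. With Bojungikgi-tang the libraries were at 529, 594 and 522 CPM at 20 µg/mL, 533, 577 and 559.8 CPM at 100, and 828, 825 and 820.2 CPM at 500. The 500 µg/mL libraries lay above all others of that formula, and the lower doses overlapped. With Sayeok-tang they were at 577, 563 and 579 CPM at 20 µg/mL, 654, 675 and 692 CPM at 100, and 1225, 1329.8 and 1280.4 CPM at 500. With Banhasasim-tang they were at 616 and 609 CPM at 20 µg/mL, 852 and 830.2 CPM at 100, and 1427 and 1520.4 CPM at 500. In these 2 formulas the 3 doses did not overlap and each dose lay above the one before. The log2 change from 20 to 500 µg/mL was 0.59 with Bojungikgi-tang (SE 0.05, adjusted p = 8.48e-10), 1.16 with Sayeok-tang (SE 0.05, adjusted p = 4.71e-16) and 1.27 with Banhasasim-tang (SE 0.06, adjusted p = 5.43e-16). Exons of SQSTM1 overlap those of MGAT4B and MRNIP on the other strand; the library kit marks strand, but strand use in counting was not given in the sources used here, so reads of such pairs may be split.

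The other cargo receptors moved less. NBR1, which works beside p62 on ubiquitin-marked cargo, rose with Bojungikgi-tang (0.16, SE 0.04, adjusted p = 0.0035) and Banhasasim-tang (0.29, SE 0.05, adjusted p = 7.33e-06). OPTN, a receptor for damaged mitochondria and bacteria, rose with Banhasasim-tang from 58.1 ± 1.3 to 76.6 ± 1.35 CPM (n = 2 and 2), a log2 change of 0.40 (SE 0.04, adjusted p = 1.91e-08). Its log2 change with Sayeok-tang was 0.10 (SE 0.04, adjusted p = 0.0436) and that call ended without any 1 of 5 libraries, at adjusted p = 0.0582 to 0.191: each Sayeok-tang library at 500 µg/mL and replicates 1 and 2 at 20 µg/mL. TAX1BP1, a receptor that also binds ubiquitin, passed with Banhasasim-tang, from 206 ± 6.4 to 261 ± 7.95 CPM (n = 2 and 2; log2 change 0.34, SE 0.05, adjusted p = 7.65e-07). All 4 receptors thus rose with Banhasasim-tang, 2 with Bojungikgi-tang (SQSTM1 and NBR1) and 2 with Sayeok-tang (SQSTM1 and OPTN).

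**Figure D2:**
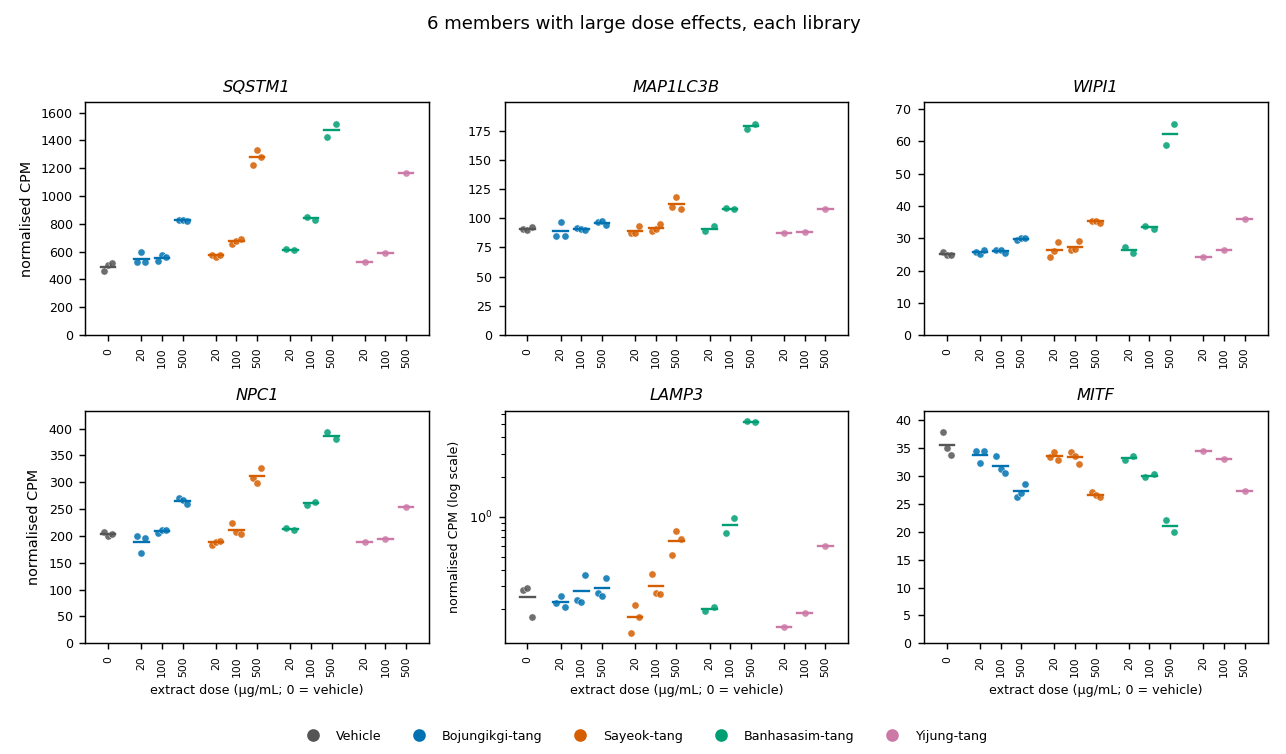
Each point is a library and each bar the group mean, in normalised CPM against extract dose in µg/mL (0 is vehicle), with a log axis for LAMP3 only. SQSTM1, MAP1LC3B, WIPI1, NPC1 and LAMP3 have their highest libraries with Banhasasim-tang at 500 µg/mL, and MITF has its lowest there.

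Of the 4 genes of the ATG8 family, MAP1LC3B changed most with Banhasasim-tang and Sayeok-tang, and GABARAPL1 was the one that passed with Bojungikgi-tang. MAP1LC3B (ENSG00000140941, chr16:87383995-87404779, plus strand) encodes LC3B, the membrane-bound protein used most often to mark autophagosomes. Its vehicle libraries were at 90.7, 90.2 and 92.8 CPM. Banhasasim-tang libraries were at 89.1 and 93.0 CPM at 20 µg/mL, 109 and 108 CPM at 100, and 176 and 181 CPM at 500. Sayeok-tang libraries were at 87.3, 87.0 and 93.3 CPM at 20 µg/mL, 88.9, 91.2 and 94.7 CPM at 100, and 109.7, 118 and 108 CPM at 500. The middle dose stood above the lowest with Banhasasim-tang and overlapped it with Sayeok-tang. With Bojungikgi-tang they were at 84.6, 97.1 and 84.8 CPM at 20 µg/mL, 91.9, 91.0 and 90.2 CPM at 100, and 96.4, 97.7 and 94.3 CPM at 500, where the lowest dose overlapped both others through replicate 2 at 97.1 CPM. The log2 change from 20 to 500 µg/mL was 0.97 with Banhasasim-tang (SE 0.05, adjusted p = 1.98e-14), 0.33 with Sayeok-tang (SE 0.04, adjusted p = 2.43e-06) and 0.11 with Bojungikgi-tang (SE 0.04, adjusted p = 0.0817).

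GABARAPL1 (ENSG00000139112, chr12:10212458-10223130, plus strand) encodes a GABARAP-type ATG8 protein that acts later in autophagosome maturation. Its libraries were at 21.1 and 21.2 CPM with Banhasasim-tang at 20 µg/mL, at 22.0 and 20.5 CPM at 100 and at 29.6 and 29.4 CPM at 500. Bojungikgi-tang libraries were at 21.8, 20.8 and 21.2 CPM at 20 µg/mL, 26.0, 22.8 and 22.9 CPM at 100, and 25.0, 25.1 and 23.3 CPM at 500. Both formulas had their 500 µg/mL libraries above those at 20 µg/mL. With Sayeok-tang the libraries overlapped, at 25.6, 21.7 and 23.9 CPM at 20 µg/mL, 21.3, 23.2 and 23.5 CPM at 100, and 23.4, 23.8 and 23.6 CPM at 500, while the vehicle libraries were at 19.7, 20.5 and 20.6 CPM. The log2 changes were 0.48 with Banhasasim-tang (SE 0.07, adjusted p = 1.84e-06), 0.20 with Bojungikgi-tang (SE 0.06, adjusted p = 0.013) and -0.01 with Sayeok-tang (SE 0.06, adjusted p = 0.942). The Bojungikgi-tang call ended without replicate 1 or replicate 2 at 500 µg/mL, at adjusted p = 0.0567 to 0.0592. GABARAP and GABARAPL2 passed with no formula, with log2 changes of 0.04, 0.06 and 0.07 for GABARAP and of 0.02, -0.01 and -0.02 for GABARAPL2 (Bojungikgi-tang, Sayeok-tang and Banhasasim-tang). Reads of MAP1LC3B and GABARAPL1 can be shared with the near-identical copies MAP1LC3B2 and GABARAPL3, so their levels carry that uncertainty. Per kilobase of exon, vehicle cells had GABARAP at 77.4 ± 1.61 CPM per kb, above MAP1LC3B at 17.2 ± 0.259, GABARAPL2 at 13.5 ± 0.652 and GABARAPL1 at 4.97 ± 0.118 (n = 3).

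**Figure D3:**
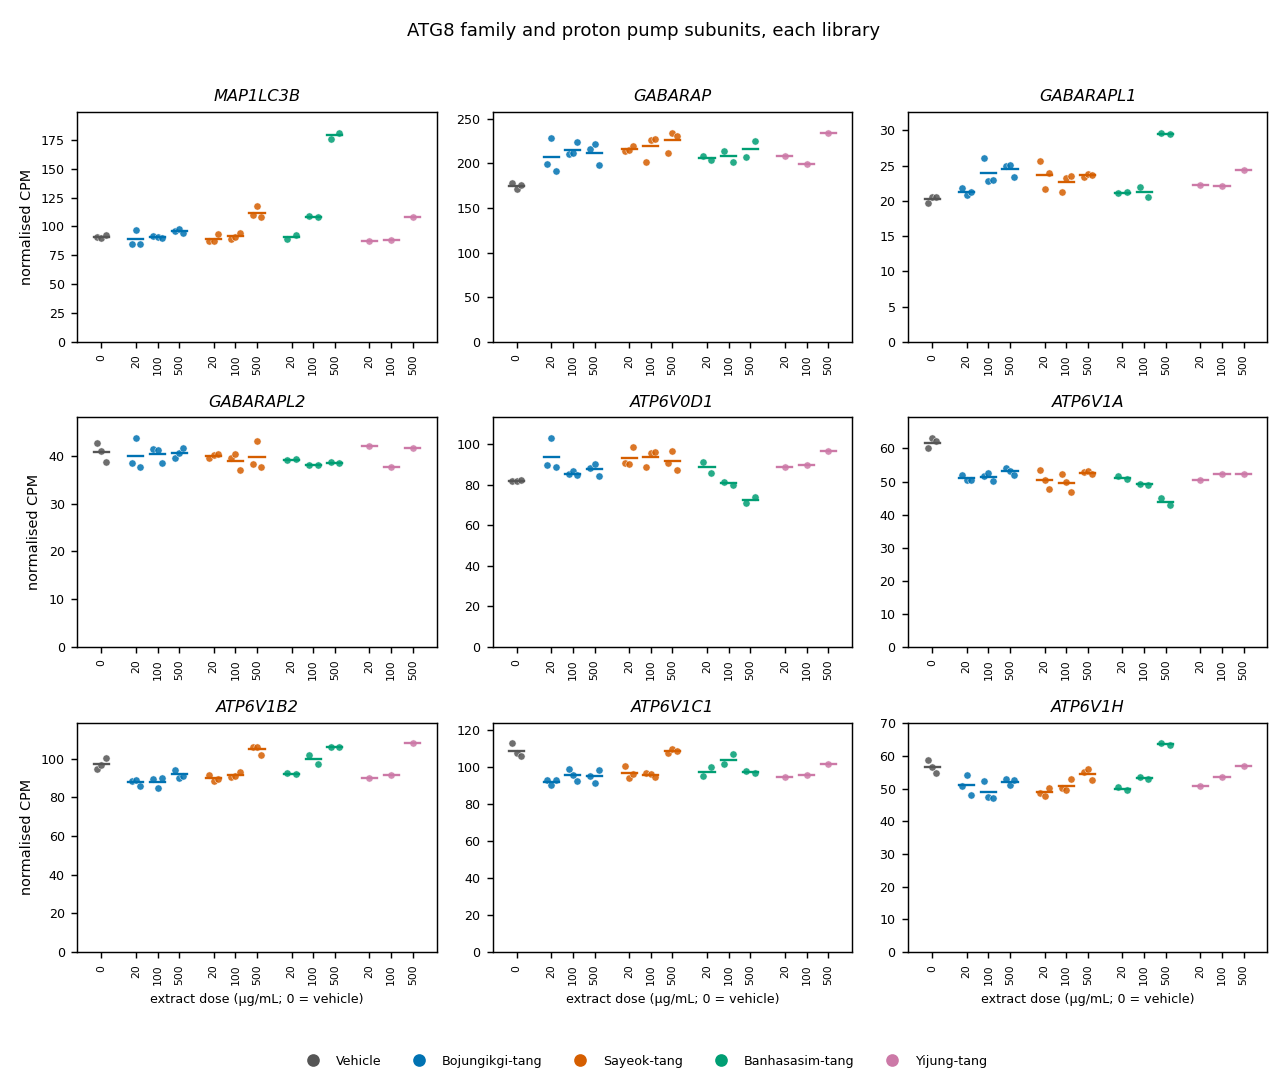
Each point is a library and each bar the group mean, in normalised CPM against extract dose in µg/mL (0 is vehicle), for the ATG8 family and 5 of the 6 proton pump subunits. MAP1LC3B and GABARAPL1 are highest with Banhasasim-tang at 500 µg/mL, GABARAP is lowest in vehicle, and ATP6V1A is highest in vehicle and lowest with Banhasasim-tang at 500 µg/mL.

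Among the genes that start the autophagosome, WIPI1 had the largest change. WIPI1 (ENSG00000070540, chr17:68420948-68457513, minus strand) encodes a protein that reads the lipid signal on the forming membrane. Its vehicle libraries were at 25.7, 24.8 and 24.8 CPM. Under Banhasasim-tang the values were 27.3 and 25.3 CPM at 20 µg/mL, 33.7 and 33.0 CPM at 100, and 58.8 and 65.5 CPM at 500. Under Sayeok-tang the values were 24.3, 26.1 and 28.9 CPM at 20 µg/mL, 26.3, 26.7 and 29.0 CPM at 100, and 35.4, 35.4 and 34.7 CPM at 500. Every Banhasasim-tang dose stood apart from the one below, whereas with Sayeok-tang the 500 µg/mL libraries stood apart and the lower doses overlapped. Under Bojungikgi-tang the values were 25.6, 25.1 and 26.4 CPM at 20 µg/mL, 26.3, 26.4 and 25.4 CPM at 100, and 29.3, 30.2 and 30.1 CPM at 500, again apart only at 500. The log2 change from 20 to 500 µg/mL was 1.24 with Banhasasim-tang (SE 0.06, adjusted p = 3.66e-15), 0.42 with Sayeok-tang (SE 0.05, adjusted p = 8.99e-07) and 0.22 with Bojungikgi-tang (SE 0.05, adjusted p = 0.00464).

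ULK1, the kinase that starts autophagy, rose with all 3 formulas, to 59.1 ± 2.03 CPM with Bojungikgi-tang, 58.5 ± 2.97 CPM with Sayeok-tang (n = 3 each) and 67.8 ± 2.55 CPM with Banhasasim-tang (n = 2). Its log2 changes were 0.17, 0.17 and 0.39 (SE 0.05, 0.05 and 0.06), and the Banhasasim-tang call held without each library in turn. The Bojungikgi-tang call ended without replicate 2 at 500 or replicate 2 at 20 µg/mL (adjusted p = 0.0942 to 0.103), and the Sayeok-tang call without replicate 2 at 20 or replicate 3 at 500 µg/mL (adjusted p = 0.0933 to 0.113). ATG14, which directs the lipid kinase complex to the forming membrane, rose with Banhasasim-tang (0.27, SE 0.07, adjusted p = 0.00132) and with Bojungikgi-tang (0.18, SE 0.05, adjusted p = 0.0211). Its Bojungikgi-tang call ended without replicate 1 or 2 at 20 or replicate 3 at 500 µg/mL (adjusted p = 0.0531 to 0.143). WIPI2, the partner of WIPI1 that recruits the conjugation system, passed with Banhasasim-tang (0.20, SE 0.04, adjusted p = 0.000504). BECN1, a core subunit of the lipid kinase complex, and ATG9A, a membrane protein that seeds the autophagosome, passed with no formula, with log2 changes between -0.07 and 0.09.

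Of the 5 conjugation genes 3 fell with at least 1 formula and 1 rose with 1 formula. ATG7, the activating enzyme of the system, fell with Bojungikgi-tang (-0.19, SE 0.05, adjusted p = 0.00607) and Sayeok-tang (-0.14, SE 0.05, adjusted p = 0.0333). ATG3, the enzyme that transfers ATG8 proteins to lipid, fell with the same formulas (-0.14 and -0.13, SE 0.05, adjusted p = 0.041 and 0.0464), although 20 and 500 µg/mL libraries of Sayeok-tang overlapped. ATG5, the scaffold joined to ATG12, fell with Bojungikgi-tang (-0.17, SE 0.05, adjusted p = 0.0105) and Banhasasim-tang (-0.17, SE 0.06, adjusted p = 0.0189). ATG12 rose with Banhasasim-tang (0.11, SE 0.04, adjusted p = 0.0464), and ATG16L1, which places the ATG12-ATG5 pair on the membrane, passed with no formula. Each of these 6 falls and the ATG12 rise rested on single libraries. The Bojungikgi-tang calls ended without replicate 2 at 20 µg/mL (ATG3, ATG5 and ATG7), replicate 2 at 500 µg/mL (ATG3 and ATG5) or replicate 1 at 500 µg/mL (ATG3), at adjusted p = 0.055 to 0.237. The Sayeok-tang calls of ATG3 and ATG7 ended without replicate 1 or 3 at 500 or replicate 2 or 3 at 20 µg/mL, at adjusted p = 0.0508 to 0.261. With Banhasasim-tang the ATG12 call ended without any of its 4 libraries (adjusted p = 0.0643 to 0.235) and the ATG5 call without any but replicate 2 at 500 µg/mL (adjusted p = 0.0548 to 0.1). DESeq2, library-size scaling and the unfiltered fit also ended the ATG12 call. ATG7 shares exon sequence with VGLL4, and ATG12 with AP3S1, on the other strand.

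The transcription factors of the TFEB family did not rise at 500 against 20 µg/mL with any formula. MITF (ENSG00000187098, chr3:69739435-69968337, plus strand), the member known best for pigment cells, fell with all 3. Its vehicle libraries were at 37.9, 35.0 and 33.7 CPM. With Banhasasim-tang the libraries were at 32.9 and 33.5 CPM at 20 µg/mL, 29.8 and 30.3 CPM at 100, and 22.1 and 20.0 CPM at 500. With Bojungikgi-tang they were at 34.5, 32.3 and 34.4 CPM at 20 µg/mL, 33.6, 31.3 and 30.5 CPM at 100, and 26.3, 27.0 and 28.5 CPM at 500. The 500 µg/mL libraries of both lay below all vehicle libraries and all lower doses. With Sayeok-tang they were at 33.3, 34.2 and 32.9 CPM at 20 µg/mL, 34.3, 33.5 and 32.1 CPM at 100, and 27.1, 26.6 and 26.2 CPM at 500. The log2 changes were -0.66 with Banhasasim-tang (SE 0.06, adjusted p = 1.04e-09), -0.31 with Bojungikgi-tang (SE 0.05, adjusted p = 3.95e-05) and -0.33 with Sayeok-tang (SE 0.05, adjusted p = 1.06e-05).

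TFEB itself (ENSG00000112561, chr6:41683978-41736259, minus strand), the factor that gives the family its lysosomal role, fell with Banhasasim-tang. Its libraries were at 17.0 and 15.9 CPM at 20 µg/mL, 16.6 and 15.2 CPM at 100, and 10.6 and 12.4 CPM at 500, with vehicle at 13.6, 14.5 and 15.4 CPM. The 500 µg/mL libraries were below every other library of that formula and of vehicle, and the log2 change was -0.51 (SE 0.08, adjusted p = 1.05e-05). Bojungikgi-tang libraries were at 15.8, 17.6 and 15.4 CPM at 20 µg/mL, 14.2, 15.8 and 14.8 CPM at 100, and 14.9, 14.6 and 13.6 CPM at 500 (log2 change -0.18, SE 0.07, adjusted p = 0.0626). Sayeok-tang libraries were at 14.5, 15.6 and 16.0 CPM at 20 µg/mL, 15.8, 16.7 and 16.4 CPM at 100, and 14.6, 14.4 and 13.2 CPM at 500 (log2 change -0.12, SE 0.07, adjusted p = 0.217). TFE3 (ENSG00000068323, chrX:49028726-49043486, minus strand), which shares targets with TFEB, had log2 changes of -0.04, -0.04 and 0.01 (Bojungikgi-tang, Sayeok-tang and Banhasasim-tang) with adjusted p of 0.565 to 0.939. Its 3 vehicle libraries were at 131, 130.4 and 139 CPM. At 20 µg/mL it was at 146, 139.7 and 140.5 CPM with Bojungikgi-tang, 149, 138 and 144 CPM with Sayeok-tang and 142 and 146 CPM with Banhasasim-tang. At 100 µg/mL the values were 129, 131 and 139 CPM, 145, 147 and 143 CPM, and 145 and 142 CPM in the same order. At 500 µg/mL these were 143, 138 and 133 CPM, 140.0, 139 and 141 CPM, and 137 and 152 CPM, and these overlapped the 20 µg/mL libraries within each formula. Per kilobase of exon TFE3 was the most abundant of the family in vehicle, at 31.2 ± 1.04 CPM per kb against 4.95 ± 0.298 for MITF and 2.57 ± 0.158 for TFEB (n = 3).

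NPC1 led the genes of the lysosomal membrane that changed at high levels. NPC1 (ENSG00000141458, chr18:23506184-23586898, minus strand) encodes the membrane protein that exports cholesterol from the lysosome. Its vehicle libraries were at 207, 199 and 203 CPM. With Banhasasim-tang they were at 214 and 211 CPM at 20 µg/mL, 257 and 264 CPM at 100, and 394 and 380.1 CPM at 500. Under Sayeok-tang the values were 183, 189.6 and 189.7 CPM at 20 µg/mL, 224, 208 and 204 CPM at 100, and 308, 299 and 327 CPM at 500. In both formulas the 3 doses did not overlap. Under Bojungikgi-tang the values were 200.1, 169 and 196 CPM at 20 µg/mL, 205, 210.4 and 212 CPM at 100, and 270.3, 267 and 259 CPM at 500, again without overlap. The low value of 169 CPM was replicate 2, the library that stood apart. The log2 changes from 20 to 500 µg/mL were 0.86 with Banhasasim-tang (SE 0.06, adjusted p = 1.89e-12), 0.73 with Sayeok-tang (SE 0.05, adjusted p = 5.75e-12) and 0.50 with Bojungikgi-tang (SE 0.05, adjusted p = 2.44e-08), and all 3 calls held without each library in turn.

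LAMP3 (ENSG00000078081, chr3:183122213-183163839, minus strand) had the largest fold change of the 42 genes with Banhasasim-tang and Sayeok-tang, from very low counts, and did not pass with Bojungikgi-tang. It encodes a glycoprotein of the lysosomal membrane first known from dendritic cells, also called DC-LAMP. Vehicle libraries held 8, 11 and 5 counts, or 0.282, 0.289 and 0.174 CPM. With Banhasasim-tang the libraries held 11 and 9 counts at 20 µg/mL, 39 and 41 counts at 100, and 186 and 258 counts at 500. With Sayeok-tang they held 7, 12 and 7 counts at 20 µg/mL, 19, 13 and 15 counts at 100, and 32, 39 and 26 counts at 500. Each dose of these 2 formulas lay above the one before without overlap. With Bojungikgi-tang they held 11, 13 and 11 counts at 20 µg/mL, 10, 8 and 17 counts at 100, and 16, 12 and 18 counts at 500. In CPM the means went from 0.201 ± 0.0088 to 5.24 ± 0.0743 with Banhasasim-tang (n = 2 and 2), from 0.174 ± 0.0413 to 0.659 ± 0.134 with Sayeok-tang and from 0.227 ± 0.0216 to 0.288 ± 0.0483 with Bojungikgi-tang (n = 3 and 3). The log2 changes were 4.69 (SE 0.25, adjusted p = 9.5e-15), 1.88 (SE 0.25, adjusted p = 2.27e-06) and 0.34 (SE 0.27, adjusted p = 0.527). Of the 4 dendritic cell markers looked at, CD1C was at 0 in all 30 libraries, CCR7 did not exceed 0.324 CPM, ITGAX did not exceed 0.426 CPM and CD83 ranged from 1.29 to 2.1 CPM. Their summed level was 1.62 to 1.76 CPM in vehicle. At 500 µg/mL it was 1.98 to 2.29 CPM with Bojungikgi-tang, 2.27 to 2.6 CPM with Sayeok-tang and 2.09 to 2.33 CPM with Banhasasim-tang. At 20 µg/mL it was 1.74 to 2.32, 1.6 to 2.2 and 1.73 to 2.14 CPM in the same order.

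LAMP1 (ENSG00000185896, chr13:113297241-113323672, plus strand), one of the 2 main structural glycoproteins of the lysosomal membrane, moved by far less. Its vehicle libraries were at 501, 507 and 512 CPM. Banhasasim-tang libraries were at 487 and 499 CPM at 20 µg/mL, 518 and 518 CPM at 100, and 638 and 603 CPM at 500 (log2 change 0.33, SE 0.05, adjusted p = 1.56e-06). With Sayeok-tang they were at 501, 500.1 and 495 CPM at 20 µg/mL, 493, 499 and 543 CPM at 100, and 538, 551 and 557 CPM at 500 (log2 change 0.14, SE 0.04, adjusted p = 0.0102). The 500 µg/mL libraries were above the 20 µg/mL and vehicle libraries in both, and the Sayeok-tang call ended without replicate 3 at 500 µg/mL, at adjusted p = 0.0502. With Bojungikgi-tang the doses overlapped, at 508, 511 and 488 CPM at 20 µg/mL, 509, 526 and 483 CPM at 100, and 505, 504 and 502 CPM at 500 (log2 change 0.00, SE 0.04, adjusted p = 0.97). LAMP2, the other main glycoprotein, passed with Banhasasim-tang (0.12, SE 0.04, adjusted p = 0.0155), a call that ended without replicate 2 or 3 at 20 or replicate 3 at 500 µg/mL (adjusted p = 0.0615 to 0.0837). MCOLN1, the calcium channel TRPML1, rose with Bojungikgi-tang (0.20, SE 0.05, adjusted p = 0.0132) and Sayeok-tang (0.36, SE 0.05, adjusted p = 1.17e-05), and its log2 change with Banhasasim-tang was -0.04 (SE 0.07, adjusted p = 0.672). CD63, a tetraspanin of late endosomes and lysosomes and per kilobase the most abundant member in vehicle at 252 ± 9.11 CPM per kb (n = 3), passed with no formula.

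TFEB and its relatives bind the palindrome CACGTG, in lysosomal genes often as TCACGTG, and the sequences below show where those letters stand upstream of members. RefSeq promoter sequence on GRCh38.p14 was matched by symbol for 34 of the 42 members, with 53 start sites, and the 250 bases before each start were searched on both strands. TCACGTG was found in 7 of the 53 windows (13.2%), where 3.31% of the 35116 windows of all genes had it. CACGTG, which every TCACGTG contains, was found in 8 (15.1%) against 6.34%. The motif TGACNNNGC was found in 8 (15.1%) against 10.9%, and TGATGNAA, the core of ATF4 composite sites, in 0 against 3.14%. LAMP1 had 5 copies of TCACGTG, and it was the 1 window of the 35116 with at least 5. CTSA and MCOLN1 had 2 copies each, where 0.268% of all windows had at least 2, and ATG3, ATG14, ATP6V0D1 and CTSD had 1. The windows of 5 carriers that differed in their response are given 5′ to 3′ on the strand of the gene and end at the base before the start, with TCACGTG or its reverse complement CACGTGA in capitals.
LAMP1, chr13:113296989-113297238, plus strand: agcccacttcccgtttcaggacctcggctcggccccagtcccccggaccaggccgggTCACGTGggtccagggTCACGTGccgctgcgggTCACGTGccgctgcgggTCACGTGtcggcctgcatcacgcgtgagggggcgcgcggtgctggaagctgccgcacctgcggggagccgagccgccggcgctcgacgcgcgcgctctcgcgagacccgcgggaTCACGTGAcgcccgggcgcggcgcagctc
MCOLN1, chr19:7522374-7522623, plus strand: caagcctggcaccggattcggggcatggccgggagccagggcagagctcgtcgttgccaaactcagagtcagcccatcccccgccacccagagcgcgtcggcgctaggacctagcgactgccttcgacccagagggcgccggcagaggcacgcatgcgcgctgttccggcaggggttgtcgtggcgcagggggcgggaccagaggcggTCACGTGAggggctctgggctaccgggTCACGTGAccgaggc
CTSA, chr20:45891085-45891334, plus strand: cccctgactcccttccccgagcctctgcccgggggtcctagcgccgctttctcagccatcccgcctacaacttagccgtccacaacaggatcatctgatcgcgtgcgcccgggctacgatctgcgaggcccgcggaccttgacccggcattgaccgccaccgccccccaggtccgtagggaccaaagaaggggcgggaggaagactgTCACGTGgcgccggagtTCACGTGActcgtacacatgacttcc
CTSD, chr11:1763928-1764177, minus strand: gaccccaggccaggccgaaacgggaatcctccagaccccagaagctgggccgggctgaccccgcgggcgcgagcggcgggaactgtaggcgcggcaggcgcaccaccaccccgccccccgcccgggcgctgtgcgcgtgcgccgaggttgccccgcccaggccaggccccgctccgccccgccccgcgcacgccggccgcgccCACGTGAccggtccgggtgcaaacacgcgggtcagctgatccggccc
ATP6V0D1, chr16:67481158-67481407, minus strand: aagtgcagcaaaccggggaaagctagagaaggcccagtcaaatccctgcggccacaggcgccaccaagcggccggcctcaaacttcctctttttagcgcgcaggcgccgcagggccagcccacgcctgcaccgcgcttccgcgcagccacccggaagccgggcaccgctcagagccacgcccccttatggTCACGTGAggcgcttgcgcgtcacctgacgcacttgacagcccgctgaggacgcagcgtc
Between the end of the motif nearest the start and the start itself lay 21 bases in LAMP1, 7 in MCOLN1, 18 in CTSA, 40 in CTSD and 52 in ATP6V0D1. The 7 carriers of TCACGTG did not share a direction. From 20 to 500 µg/mL CTSD rose with all 3 formulas, LAMP1 with Sayeok-tang and Banhasasim-tang, and MCOLN1 with Bojungikgi-tang and Sayeok-tang. CTSA passed with none, and ATP6V0D1 fell with Banhasasim-tang. Of the carriers whose windows are not shown, ATG14 rose with Bojungikgi-tang and Banhasasim-tang, and ATG3 fell with Bojungikgi-tang and Sayeok-tang. A match describes the letters and is no measure of binding.

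Among hydrolases and proteins of the lysosomal lumen, CTSD and CTSL rose with all 3 formulas. CTSD (ENSG00000117984, chr11:1752752-1764573, minus strand) encodes cathepsin D, the main aspartic protease of lysosomes. Its vehicle libraries were at 293, 311 and 307 CPM. Sayeok-tang libraries were at 349, 352 and 356 CPM at 20 µg/mL, 365, 380.3 and 388 CPM at 100, and 458, 474 and 463 CPM at 500. Under Banhasasim-tang the values were 362 and 361 CPM at 20 µg/mL, 430.2 and 397 CPM at 100, and 444 and 507 CPM at 500. Every treated library, the lowest dose included, was above every vehicle library. With Bojungikgi-tang they were at 342, 369 and 334 CPM at 20 µg/mL, 334, 342 and 353 CPM at 100, and 404, 399.9 and 382 CPM at 500. From 20 to 500 µg/mL the log2 change was 0.40 with Sayeok-tang (SE 0.05, adjusted p = 2.08e-07), 0.40 with Banhasasim-tang (SE 0.06, adjusted p = 1.57e-06) and 0.18 with Bojungikgi-tang (SE 0.05, adjusted p = 0.0064).

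CTSL (ENSG00000135047, chr9:87725519-87731393, plus strand) encodes cathepsin L, a cysteine protease. Vehicle libraries were at 140.0, 139.7 and 135 CPM. With Banhasasim-tang they were at 132 and 130.5 CPM at 20 µg/mL, 149.6 and 149.9 CPM at 100, and 196 and 197 CPM at 500 (log2 change 0.58, SE 0.05, adjusted p = 3.74e-10). Under Sayeok-tang the values were 135, 141 and 145 CPM at 20 µg/mL, 139, 139.8 and 153 CPM at 100, and 179.8, 177 and 169 CPM at 500 (log2 change 0.32, SE 0.04, adjusted p = 1.58e-06). Unlike CTSD, CTSL at 20 µg/mL overlapped or lay below vehicle in these formulas. Bojungikgi-tang libraries were at 135, 144 and 135 CPM at 20 µg/mL, 157, 148 and 144 CPM at 100, and 159, 169 and 163 CPM at 500 (log2 change 0.25, SE 0.04, adjusted p = 9.52e-05).

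HEXA, a subunit of the enzyme that clears GM2 ganglioside, rose with Sayeok-tang (0.16, SE 0.04, adjusted p = 0.00201) and Banhasasim-tang (0.28, SE 0.05, adjusted p = 9.42e-06). NPC2, the soluble partner that hands cholesterol to NPC1, rose with the same formulas (0.17 and 0.19, SE 0.05 and 0.07, adjusted p = 0.0218 and 0.0184). Its Sayeok-tang call ended without replicate 1 or 2 at 20 or replicate 2 at 500 µg/mL (adjusted p = 0.0585 to 0.122), and its Banhasasim-tang call without replicate 2 or 3 at 20 or replicate 3 at 500 µg/mL (adjusted p = 0.0688 to 0.202). CTSB, the cysteine protease cathepsin B, passed with Banhasasim-tang (0.20, SE 0.05, adjusted p = 0.000915). GLA, which removes galactose from glycolipids, fell with Banhasasim-tang (-0.21, SE 0.07, adjusted p = 0.0178), a call that ended without replicate 2 or 3 at 500 or replicate 2 at 20 µg/mL (adjusted p = 0.0634 to 0.145). CTSA, which protects other lysosomal enzymes, and CTSZ, a carboxypeptidase, passed with no formula.

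Subunits of the proton pump did not move together. With Banhasasim-tang ATP6V1H and ATP6V1B2 rose (0.34 and 0.20, SE 0.06 and 0.04, adjusted p = 9.19e-06 and 0.000243), while ATP6V1A and ATP6V0D1 fell (-0.22 and -0.29, SE 0.05 and 0.06, adjusted p = 0.000903 and 0.000331). ATP6V1A and ATP6V1B2 encode the catalytic and regulatory subunits of the same ATP-splitting head, ATP6V1H a subunit that controls its activity, and ATP6V0D1 a subunit that couples head and membrane sector. ATP6V1A went from 51.2 ± 0.656 to 43.8 ± 1.52 CPM and ATP6V1B2 from 92.2 ± 0.498 to 106 ± 0.475 CPM (n = 2 and 2), with no overlap in either. With Sayeok-tang ATP6V1B2, ATP6V1C1 and ATP6V1H rose (0.22, 0.16 and 0.16, SE 0.03, 0.04 and 0.05), and 0 fell. The ATP6V1H call ended without replicate 2 at 20 or replicate 2 at 500 µg/mL (adjusted p = 0.0519 to 0.0556). With Bojungikgi-tang ATP6V1D, part of the central rotor, fell (-0.15, SE 0.05, adjusted p = 0.0199), which ended without replicate 2 at 20 or replicate 3 at 500 µg/mL (adjusted p = 0.1 to 0.107).

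At the middle dose few members had passed. From 20 to 100 µg/mL 8 members rose with Banhasasim-tang (19.0%, against 3.64% of all genes higher) and 0 fell (2.96% of all genes lower). The 8 were LAMP3 (2.09, SE 0.29), SQSTM1 (0.46, SE 0.06), WIPI1 (0.34, SE 0.06), NPC1 (0.29, SE 0.06), MAP1LC3B (0.25, SE 0.05), ULK1 (0.22, SE 0.06), CTSD (0.19, SE 0.06) and CTSL (0.19, SE 0.05) on the log2 scale. The ULK1 and CTSL calls ended without any of the 4 libraries, the CTSD call without any but replicate 3 at 100 µg/mL and the MAP1LC3B call without replicate 2 at 20 µg/mL, at adjusted p = 0.0772 to 0.394. Scaling by library size alone gave 5 higher and 4 lower. At an unadjusted p under 0.05 edgeR had 16 higher and 2 lower. With Bojungikgi-tang and Sayeok-tang edgeR called 0 members in either direction (4 higher and 4 lower, and 4 higher and 0 lower, at an unadjusted p under 0.05), where 0.458% of all genes rose and 1.11% fell with Bojungikgi-tang and 0.0204% rose and 0.0102% fell with Sayeok-tang, and DESeq2 called 1 with each formula.

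The dose effects differed between formulas for part of the list, tested as the difference between the 500 against 20 µg/mL changes. Between Banhasasim-tang and Bojungikgi-tang 17 members changed more upward with Banhasasim-tang (40.5%, against 16.5% of all genes) and 6 more downward (14.3%, against 15.3%). The log2 difference was 1.02 for WIPI1 (SE 0.08, adjusted p = 1.31e-10), 0.86 for MAP1LC3B (SE 0.07, adjusted p = 1.42e-10) and 4.35 for LAMP3 (SE 0.39, adjusted p = 1.08e-09). Scaling by library size alone gave 10 upward and 11 downward in that test, and moved the median of all genes from 0.02 to -0.11. Between Sayeok-tang and Banhasasim-tang 10 members were lower with Sayeok-tang (23.8%, against 12.2% of all genes) and 7 higher (16.7%, against 12.2%), and SQSTM1 was among the genes that did not pass (-0.11, SE 0.08, adjusted p = 0.333). Between Sayeok-tang and Bojungikgi-tang 4 members were higher with Sayeok-tang (9.52%, against 2.12% of all genes) and 0 lower (2.37% of all genes; 2 at an unadjusted p under 0.05, and 0 in DESeq2). The 4 were SQSTM1, LAMP3, NPC1 and MAP1LC3B, of which the LAMP3 call ended without any 1 of 4 of the 12 libraries (adjusted p = 0.0528 to 0.0885), the NPC1 call without any 1 of 10 (0.0626 to 0.157) and the MAP1LC3B call without any 1 of 8 (0.0623 to 0.171).

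**Figure D4:**
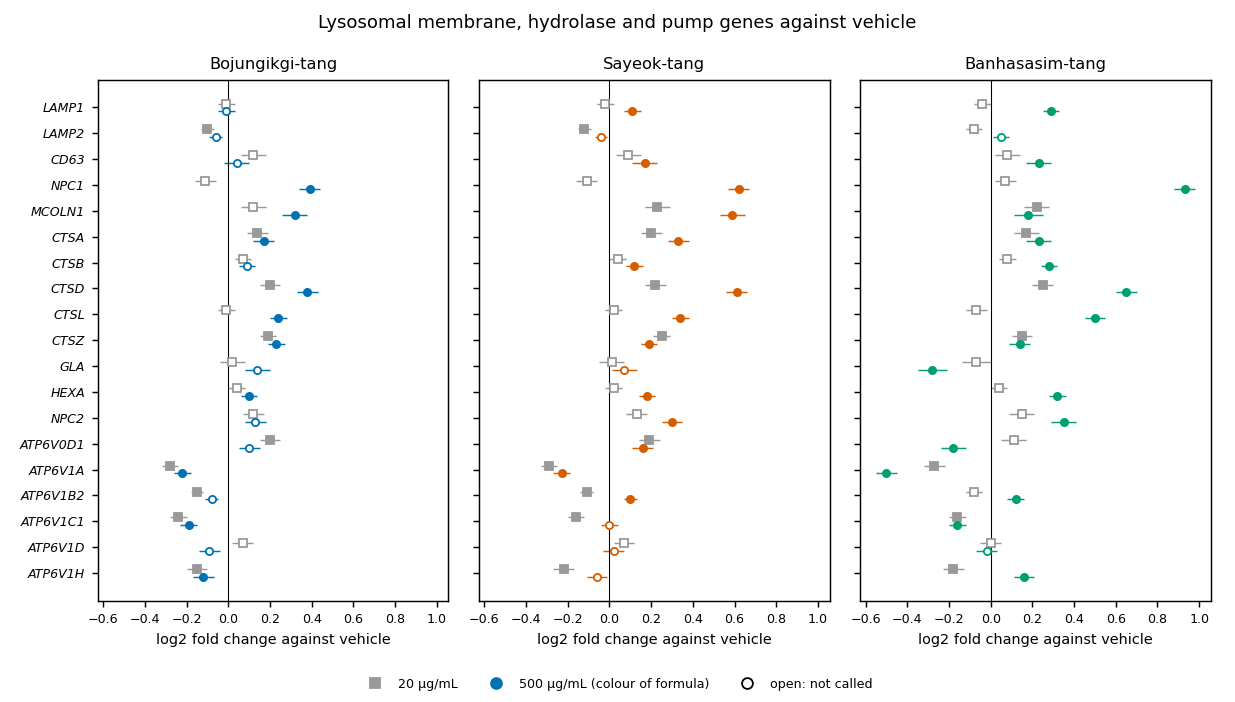
Each point is the log2 fold change of a lysosomal gene against vehicle, at 20 µg/mL in grey squares and 500 µg/mL in coloured circles, with standard errors as bars and open symbols where the adjusted p was 0.05 or more. CTSD, CTSA and CTSZ lie to the right and ATP6V1A, ATP6V1C1 and ATP6V1H to the left of 0 already at 20 µg/mL in every formula.

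Against vehicle, more members passed, and some differences were present in full at the lowest dose. At 500 µg/mL 13 rose and 7 fell with Bojungikgi-tang (31.0 and 16.7%, against 16.4 and 18.2% of all genes), 22 rose and 4 fell with Sayeok-tang (52.4 and 9.52%, against 18.8 and 19.4%), and 26 rose and 7 fell with Banhasasim-tang (61.9 and 16.7%, against 25.9 and 25.1%). With scaling by library size alone the Banhasasim-tang counts were 16 and 13, at a shift of -0.12 in the median of all genes, and the share of higher genes among all calls went from 50.7 to 34.1%. At 20 µg/mL 8 rose and 6 fell with Bojungikgi-tang (19.0 and 14.3%, against 12.4 and 13.8% of all genes), 10 and 8 with Sayeok-tang (23.8 and 19.0%, against 12.0 and 13.4%) and 7 and 5 with Banhasasim-tang (16.7 and 11.9%, against 8.89 and 9.39%). These comparisons share the vehicle libraries, so agreement between them is not independent, and the vehicle libraries also differ in label set. At 20 µg/mL the scaling moved the share of higher genes from 48.6 to 26.4% with Banhasasim-tang, with 3 members higher and 10 lower.

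GABARAP was at 178, 171 and 176 CPM in vehicle and at 192 to 228 CPM in the 9 libraries of the lowest dose. Its log2 difference from vehicle at 20 µg/mL was 0.24 with Bojungikgi-tang, 0.30 with Sayeok-tang and 0.23 with Banhasasim-tang (SE 0.06 each, adjusted p = 0.00264, 0.000311 and 0.0104), and at 500 µg/mL 0.27, 0.36 and 0.30. The Banhasasim-tang call at 20 µg/mL ended without replicate 2 at that dose (adjusted p = 0.108). CTSZ was at 93.7 to 94.4 CPM in vehicle and 101 to 115 CPM at the lowest dose, and CTSA at 326 to 335 CPM and 349 to 387 CPM. Neither overlapped with vehicle at the lowest dose, and neither passed from 20 to 500 µg/mL. Their Banhasasim-tang calls at 20 µg/mL ended without vehicle replicate 1 or 2 or replicate 2 of the formula, as the CTSZ call did without vehicle replicate 3 (adjusted p = 0.0507 to 0.324). The CTSA call with Bojungikgi-tang ended without any vehicle library or replicate 2 or 3 at 20 µg/mL (adjusted p = 0.0525 to 0.112). ATP6V1A was at 60.0, 63.1 and 62.2 CPM in vehicle and at 47.8 to 53.6 CPM in the 9 lowest-dose libraries, with log2 differences of -0.28, -0.29 and -0.27 (SE 0.04, 0.04 and 0.05). ATP6V1C1, a subunit of the stalk that holds the pump together, was at 106 to 113 CPM in vehicle and 90.2 to 101 CPM at the lowest dose, again without overlap; its Banhasasim-tang call ended without vehicle replicate 1 or replicate 2 of the formula (adjusted p = 0.0501 to 0.17). By contrast the differences of WIPI1, MAP1LC3B, NPC1, CTSL and MITF from vehicle at 20 µg/mL were within 0.11 on the log2 scale and did not pass with any formula.

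Yijung-tang had 1 library per dose, so its values have no replicate check and no test. At 500 µg/mL its library lay above all 9 libraries of the lowest dose for 23 of the 42 members, below them for 2 and inside their range for 17. Of all 19632 genes 17.8% lay above that range and 16.7% below it. SQSTM1 was at 527, 593 and 1165 CPM at 20, 100 and 500 µg/mL, WIPI1 at 24.3, 26.2 and 35.9 CPM, and NPC1 at 188, 195 and 254 CPM. These 3 were highest at 500 µg/mL. CTSD was at 322, 333 and 442 CPM, and LAMP3 at 7, 8 and 24 counts (0.148, 0.186 and 0.601 CPM). MITF, at 34.4, 33.1 and 27.3 CPM, and ATG5, at 64.5, 59.0 and 59.0 CPM, were the 2 below the range.

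A wider list of 133 further autophagy and lysosome genes, of 135 listed, was counted in the same way. It too was chosen with earlier results of these data known. From 20 to 500 µg/mL 40 rose and 3 fell with Bojungikgi-tang (30.1 and 2.26%, against 6.64 and 8.9% of all genes; median log2 change 0.07). With Sayeok-tang 54 rose and 6 fell (40.6 and 4.51%, against 9.89 and 10.6%; median 0.11), and with Banhasasim-tang 68 rose and 18 fell (51.1 and 13.5%, against 22.3 and 21.3%; median 0.16). Among the 4 largest rises of each formula were CCPG1 and SESN2. CCPG1, a receptor for autophagy of the endoplasmic reticulum, rose from 63.1 ± 4.08 to 82.8 ± 3.99 CPM with Bojungikgi-tang, from 63.7 ± 1.71 to 113 ± 7.05 CPM with Sayeok-tang (n = 3 and 3) and from 64.4 ± 4.96 to 188 ± 11.0 CPM with Banhasasim-tang (n = 2 and 2). SESN2, a stress-induced inhibitor of the growth kinase mTORC1, rose from 19.7 ± 0.67 to 25.0 ± 0.328, from 19.9 ± 0.493 to 43.4 ± 1.17 and from 24.3 ± 0.488 to 101 ± 7.84 CPM in the same order. Their log2 changes with Banhasasim-tang were 1.55 (SE 0.07, adjusted p = 6.96e-17) and 2.06 (SE 0.06, adjusted p = 9.65e-21).

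The other named rises were smaller or at lower levels. RRAGD, a small GTPase that brings mTORC1 to the lysosome, rose from 0.419 ± 0.0914 to 2.91 ± 0.308 CPM with Banhasasim-tang (log2 change 2.80, SE 0.24) and from 0.415 ± 0.0494 to 1.07 ± 0.029 CPM with Sayeok-tang (log2 change 1.37, SE 0.21). RETREG1, another receptor for autophagy of the endoplasmic reticulum, rose with Banhasasim-tang by a log2 change of 1.12 (SE 0.13), CTSV, a relative of cathepsin L, with Sayeok-tang by 0.81 (SE 0.18), and the cathepsin CTSO and the acid glucosidase GAA with Bojungikgi-tang by 0.35 and 0.27 (SE 0.05 each). BNIP3, a receptor for autophagy of mitochondria, was among the largest falls with every formula, at log2 changes of -0.44, -0.31 and -0.71 (SE 0.05, 0.05 and 0.07, for Bojungikgi-tang, Sayeok-tang and Banhasasim-tang). VMP1, an endoplasmic reticulum protein needed to form autophagosomes, fell with Bojungikgi-tang and Sayeok-tang (-0.15 and -0.24, SE 0.04 each), and WDR45B, a relative of WIPI1, with Bojungikgi-tang (-0.11, SE 0.03). The cathepsin CTSC and the sulfatase ARSB fell with Sayeok-tang (-0.20 and -0.18, SE 0.05 each). With Banhasasim-tang the cathepsin CTSK (-0.85, SE 0.23), the mTOR inhibitor DEPTOR (-0.47, SE 0.19) and the lysosomal ion channel TMEM175 (-0.46, SE 0.09) fell. Of these, CTSK and DEPTOR were at low levels (n = 2 and 2). CTSK went from 1.64 ± 0.317 to 0.922 ± 0.224 CPM. DEPTOR went from 1.46 ± 0.341 to 1.05 ± 0.122 CPM, at an edgeR adjusted p = 0.0449.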

How the data were processed

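RNA was sequenced from 30 SW1783 libraries as 100-base read pairs with a kit that marks strand, per the labels' protocols. The authors deposited 1 table of expected counts per Ensembl gene, which sum to 28.01 to 59.9 M per library, with 9.36 to 11.1% of values not whole. FastQC 0.11.9, Trim Galore 0.6.5, STAR 2.7.3a, RSEM 1.3.3 and hg38 (GRCh38) are named in the submitters' processing notes; the annotation release was not given there. Gene names were matched for 56558 of 60675 IDs (93.2%), and positions and lengths came from GENCODE v29.

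Expected counts were rounded and filtered by filterByExpr (19632 genes left). They were scaled by TMM and fitted as 13 group means over all 30 libraries in edgeR 4.0.16 (R 4.3.3, limma 3.58.1, robust quasi-likelihood F test, Benjamini-Hochberg, threshold 0.05, prior count 2). 15 contrasts were tested, including the differences between the dose effects of 2 formulas. The SE was derived from the F value and the log2 change. The procedure was tested on simulated data with known changes. The simulation held no difference between label sets and no outlying library, so it gives no check on those. CPM divides counts by the TMM-scaled library size, and differences of low genes are limited by their counts. Alternatives were scaling by library size, no filter, the compared groups alone, a replicate block, DESeq2 1.42.0, each library left out in turn and, added after seeing the data, crossed numbers. Replicate numbers were not taken as pairs, since correlations of deviations of same-numbered libraries were not all over 0.1.

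The members and lists were chosen with earlier results of these data known. All 42 members are accounted for by role, 12 of them with the value of every library, and from the wider list up to 4 called genes in each direction per formula with the largest changes were named. Near-identical copies could share reads.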

Additional observations from a re-analysis of the deposited data

Results flagged for a closer look

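The change from 20 to 500 µg/mL differed between formulas, by edgeR's test of the difference itself, for the genes below. Differences are on the log2 scale and formulas share no library in them, except that all come from 1 fit.

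With Sayeok-tang the change was higher than with Bojungikgi-tang for SQSTM1 (0.57, SE 0.07), MAP1LC3B (0.21, SE 0.06), LAMP3 (1.54, SE 0.38) and NPC1 (0.23, SE 0.07), with adjusted p of 3.07e-06 for SQSTM1 and 0.0209 to 0.0473 for the rest.

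With Banhasasim-tang the change was higher than with Bojungikgi-tang for all the cargo receptors but NBR1, at 0.68 for SQSTM1, 0.45 for OPTN and 0.32 for TAX1BP1. MAP1LC3B differed by 0.86 and GABARAPL1 by 0.28. Of the initiation genes WIPI1 differed by 1.02, ULK1 by 0.22 and WIPI2 by 0.16, while BECN1 differed by -0.17. The factors TFEB and MITF differed by -0.33 and -0.35. Of the lysosomal membrane genes LAMP3 differed by 4.35, NPC1 by 0.37, LAMP1 by 0.33, CD63 by 0.23 and MCOLN1 by -0.24. The hydrolases CTSL, HEXA, CTSD and CTSB differed by 0.33, 0.22, 0.21 and 0.17, and GLA by -0.32. The pump subunit ATP6V1H differed by 0.31 and ATP6V1A by -0.28. BECN1 and CD63 passed with neither formula alone.

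Of these calls against Bojungikgi-tang, 10 ended when 1 of the 10 libraries was left out. Those of CD63, MCOLN1 and ULK1 ended without any of 7 libraries (adjusted p up to 0.255, 0.219 and 0.196), that of WIPI2 without any of 6 (up to 0.123), and those of CTSD, CTSB and BECN1 without any of 5 (up to 0.336, 0.137 and 0.123). The TFEB call ended without replicate 2 of Banhasasim-tang at 500 or 20 µg/mL (0.0893 to 0.138), the GABARAPL1 call without its replicate 2 at 20 or 3 at 500 µg/mL (0.0516 to 0.0542) and the GLA call without its replicate 2 at 20 µg/mL (0.0503).

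With Sayeok-tang the change was lower than with Banhasasim-tang for NBR1 (-0.24), OPTN (-0.30), TAX1BP1 (-0.32), MAP1LC3B (-0.65), GABARAPL1 (-0.49), ULK1 (-0.22), WIPI1 (-0.83), LAMP1 (-0.19), LAMP3 (-2.81) and CTSL (-0.26). It was higher for TFEB (0.39), MITF (0.33), MCOLN1 (0.40), GLA (0.27), ATP6V0D1 (0.27), ATP6V1A (0.28) and ATP6V1C1 (0.16). Calls of 6 of these genes ended when 1 of the 10 libraries was left out. Those of ULK1 and ATP6V1C1 ended without any of 7 libraries (adjusted p up to 0.217 and 0.194) and that of GLA without any of 5 (up to 0.141). Those of LAMP1, ATP6V0D1 and TFEB ended without replicate 2 of Banhasasim-tang at 500 or 20 µg/mL (up to 0.121, 0.0954 and 0.0771).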

How the results depend on the processing

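Counts below are genes called of 19632 tested or members of 42. With scaling by library size alone, members higher and lower were 16 and 2 for Bojungikgi-tang at 500 against 20 µg/mL, 16 and 13 for Banhasasim-tang at 500 against vehicle, 3 and 10 for Banhasasim-tang at 20 against vehicle, and 10 and 11 for the Banhasasim-tang minus Bojungikgi-tang difference. That scaling left 1 member lower for Sayeok-tang at 500 against 20 µg/mL, 1 higher for Bojungikgi-tang at 100 against 20, 2 higher for Sayeok-tang minus Bojungikgi-tang and 6 lower for Sayeok-tang minus Banhasasim-tang. For Banhasasim-tang at 100 against 20 µg/mL it gave 2381 genes, with 5 members higher and 4 lower. The TFE3 and ATP6V1B2 changes with Banhasasim-tang at 500 against vehicle both reversed to -0.01. The share of higher genes among calls also moved from 29.3 to 55.3% for Bojungikgi-tang at 100 against 20 and from 55.1 to 15.2% for Banhasasim-tang. It moved from 51.8 to 29.4% for Banhasasim-tang minus Bojungikgi-tang and from 50.1 to 72.9% for Sayeok-tang minus Banhasasim-tang. For Sayeok-tang at 100 against 20 it was 66.7% of 6 calls, 100% of 4 calls with library size and 48.3% of 29 calls in DESeq2.

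Without the filter, members lower were 1 for Sayeok-tang at 500 against 20, 4 for Bojungikgi-tang at 500 against vehicle, and 2, 4 and 2 for Bojungikgi-tang, Sayeok-tang and Banhasasim-tang at 20 against vehicle. It gave 757 genes for Bojungikgi-tang and 174 genes with 2 members higher for Sayeok-tang at 100 against 20. In fits of the compared groups alone, Bojungikgi-tang at 500 against 20 had 1336 genes, 6 members higher and 1 lower, at 500 against vehicle 20 higher, at 100 against 20 6 genes, and at 20 against vehicle 2758 genes, 4 higher and 2 lower. Banhasasim-tang had 3 members lower at 100 against 20, and 5603 genes and 15 higher at 20 against vehicle, and Sayeok-tang minus Bojungikgi-tang had 478 genes and 1 higher. DESeq2 gave 1 member higher for Bojungikgi-tang and 29 genes with 1 higher for Sayeok-tang at 100 against 20. The cause was not tested.

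The replicate block gave 3186 genes for Bojungikgi-tang, 4151 for Sayeok-tang and 8724 for Banhasasim-tang at 500 against 20 µg/mL, and moved 1 count by over 1.5 times, to 1 member higher for Sayeok-tang at 100 against 20. With crossed numbers Banhasasim-tang had 8706 genes, 22 members higher and 6 lower.

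With 1 library left out, Bojungikgi-tang had 1 to 6 members lower at 500 against 20, 93 to 865 genes and 0 to 2 higher at 100 against 20, and 5 to 9 higher and 3 to 8 lower at 20 against vehicle. Sayeok-tang had 1 to 3 lower at 500 against 20, 1 to 12 genes at 100 against 20 and 5 to 7 lower at 20 against vehicle. Banhasasim-tang had 4 to 5 lower at 500 against 20, 656 to 691 genes and 4 to 6 higher at 100 against 20, and 1183 to 3180 genes, 2 to 5 higher and 1 to 5 lower at 20 against vehicle. Sayeok-tang minus Bojungikgi-tang had 1 to 5 higher and 0 to 1 lower, Banhasasim-tang minus Bojungikgi-tang 2 to 7 lower, and Sayeok-tang minus Banhasasim-tang 3 to 7 higher. LAMP3, at 5 to 13 counts in vehicle and lowest-dose libraries, is limited by depth.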
